A study of Mus musculus with 6 samples.

Results

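This report covers 39 mouse genes that build the sugar chains of proteoglycans: the enzymes that make and modify heparan sulfate and chondroitin sulfate, 3 core proteins that carry the chains, and 3 genes that supply sulfate. The rule names genes of the known pathway and uses no measured value, though the list was drawn up with earlier results of these data known, and all 39 were found among the 34866 gene rows of the deposited table. Of the 39, 36 had enough counts to be tested, as had 14017 genes in all. RNA was sequenced from the antral gastric mucosa, the lining of the lower stomach, of mice with both copies of Muc6 (Muc6 +/+, 3 libraries, called wild type 1 to 3) and of mice with neither (Muc6 -/-, 3 libraries, called knockout 1 to 3). Muc6 is a gel-forming mucin of the gastric glands. The series was made to ask how Muc6 relates to gastric cancer formation, and its title also names impaired glycosylation and Golgi stress. The labels give no strain, age, sex, animal or batch and no treatment for either group, and do not say how the Muc6 alleles were disrupted.

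A proteoglycan is a protein with long sugar chains made in the Golgi apparatus. Each chain starts with a short linker on a serine of the core protein, is extended by a heparan or a chondroitin polymerase, and is then sulfated at many positions with sulfate from the donor PAPS. Heparan sulfate on epithelial cells holds growth factors at the surface, and 2 extracellular sulfatases trim its sulfate groups after export.

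Levels are given as CPM, counts per 1000000 of the library size scaled for composition, and changes on the log2 scale, positive where the knockout was higher, with the standard error (SE). A gene is called higher or lower at an adjusted p of 0.05 in edgeR's quasi-likelihood test over all 14017 genes. Total estimated counts were 19839799 to 21354029 per library. Muc6 itself was at 396, 403 and 510.1 CPM in wild type 1 to 3 and, in the same order, 0.0425, 0 and 0 CPM in knockout 1 to 3. The first principal component (64.4% of the variance) separated the genotypes, and the second (19.6%) set wild type 1 and knockout 1 apart from the other 4 libraries. The Y-linked gene Ddx3y was at 39.3 to 41.1 CPM in the knockout libraries and at 0.0580 to 0.326 CPM in the wild-type libraries, so sex coincided with genotype and every difference below is one of both. Epithelial markers such as Epcam and the keratins summed to 12803 to 16250 CPM among wild-type libraries and 12114 to 12846 CPM among knockout ones, and none of the 6 was at 0 in every library. Of the 6, Epcam and Krt18 were higher in the knockout, with log2 changes of 1.16 and 0.99 (adjusted p = 6.71e-04 and 0.00319), and Krt8 and Cldn18 were lower, with log2 changes of -0.50 and -0.53 (adjusted p = 0.0189 and 0.0266). Summed pit cell mucus markers were at 157180 to 181530 against 37204 to 47691 CPM, and with whole tissue, fewer cells of a type and less RNA per cell cannot be told apart.

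Most changes among the members were rises. In the knockout 16 of the 36 tested members were higher and 1 was lower, against a background of 19.3% of all tested genes higher and 19.2% lower. The median log2 fold change of the 36 members was 0.70, and that of all tested genes was 0.016. The fitted change was positive in 31 members and negative in 5. In 20 members all 3 knockout libraries lay above all 3 wild-type libraries (background 28.2%), in 2 they lay below (background 26.6%), and in 14 the groups overlapped. When libraries were scaled to total counts alone, which raised the median of all tested genes by a log2 value of 0.417, 26 members were higher (background 40.9%) and 0 lower (background 7.78%). Of the 17 called members, 14 kept their call under all 16 other settings tried, and Ndst2, Chst11 and Extl2 did not.

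**Figure D1:**
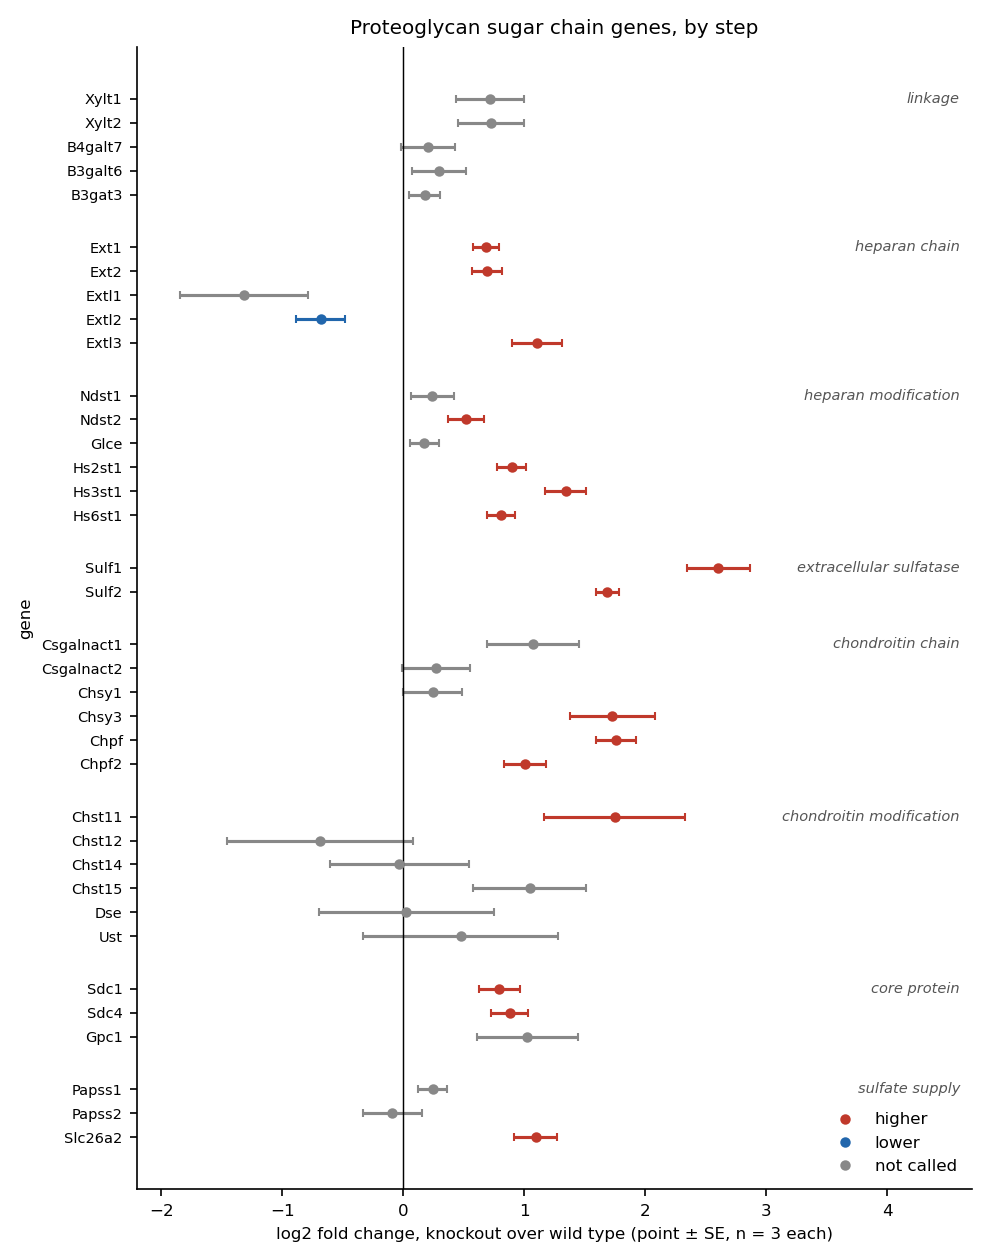
Log2 fold change, knockout over wild type, on the horizontal axis for the 36 tested genes (vertical axis), grouped by their step in the pathway. Points are edgeR estimates with the SE (n = 3 libraries each), red is higher, blue is lower and grey is not called. The 5 linkage genes lie right of 0 without a call, and the largest value is that of Sulf1 at 2.60.

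The 5 genes that build the linker shared by both kinds of chain did not pass the test. Xylt1 and Xylt2 encode the xylosyltransferases that place the first sugar on the core protein. Xylt1 was at 3.91, 3.82 and 4.29 CPM in wild type 1 to 3 and, in the same order, 6.76, 8.39 and 4.62 CPM in knockout 1 to 3, a log2 fold change of 0.72 (SE 0.28, adjusted p = 0.0790). Xylt2 was at 4.02, 2.70 and 4.002 CPM and 6.88, 5.19 and 5.63 CPM, a log2 fold change of 0.72 (SE 0.28, adjusted p = 0.0734). For both, every knockout library was above every wild-type library, although neither was called. B4galt7 and B3galt6, which add the 2 galactoses, and B3gat3, which adds the closing glucuronic acid, had log2 fold changes of 0.20, 0.30 and 0.18 (adjusted p = 0.502, 0.330 and 0.309), and their groups overlapped. Per kilobase of exon, the 5 genes together summed to 16.9 ± 2.30 CPM over the wild-type libraries and 20.03 ± 0.853 CPM over the knockout ones (SD, n = 3 each), and these sums overlapped.

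The genes of heparan chain extension changed in both directions. Ext1 and Ext2 together encode the heparan polymerase. Ext1 was at 19.1, 21.1 and 22.0 CPM in the wild-type libraries and at 32.2, 33.5 and 34.0 CPM in the knockout libraries, a rise of 0.68 (SE 0.11, adjusted p = 0.00323). Ext2 was at 25.1, 24.5 and 26.6 CPM and at 47.4, 37.7 and 37.9 CPM, a rise of 0.69 (SE 0.13, adjusted p = 0.00541). Both rose by nearly the same amount, and their ratio within a library, per kilobase, was 0.741 ± 0.0472 in wild type and 0.746 ± 0.112 in the knockout. Extl3 (ENSMUSG00000021978.9, mm10 chromosome 14, 65052060 to 65149855, minus strand), which adds the first sugar that commits a linker to heparan sulfate, was at 9.62, 13.6 and 17.2 CPM in the wild-type libraries and 31.0, 28.8 and 26.9 CPM in the knockout libraries, a rise of 1.10 (SE 0.21, adjusted p = 0.00605). The lowest knockout library thus stood above the highest wild-type library, and the wild-type libraries spread more widely than the knockout ones. Extl2 (ENSMUSG00000027963.14, mm10 chromosome 3, 116007462 to 116029017, plus strand), which can cap a linker and stop the chain in mice, was at 8.64, 12.3 and 13.2 CPM in the wild-type libraries and at 6.97, 6.98 and 7.28 CPM in the knockout libraries, a fall of 0.68 (SE 0.20, adjusted p = 0.0328). This was the only member called lower, and the call ended when any 1 of wild type 2, wild type 3 or the 3 knockout libraries was left out (adjusted p 0.0725 to 0.110). Extl1, a related transferase gene, was at 1.63, 1.24 and 2.15 CPM and 1.105, 0.416 and 0.480 CPM and was not called (-1.32, SE 0.53, adjusted p = 0.0845), although all knockout libraries were below all wild-type libraries.

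The opposite changes of Extl3 and Extl2 showed in their ratio within each library, which does not depend on how libraries are scaled. Per kilobase, Extl3 was at 0.633, 0.631 and 0.738 of the level of Extl2 in wild type 1, 2 and 3, and at 2.53, 2.35 and 2.10 times that level in knockout 1, 2 and 3. The mean ratio was 3.48 times as high in the knockout. The order of both genes turned over only per kilobase, which rests on the exon lengths used. In CPM, Extl3 was above Extl2 in every library of both genotypes. Of 15 such ratios between members computed, 8 did not overlap between the genotypes. The pairs were picked by hand, and no share over all pairs of genes was computed. Among single tested genes, the knockout lay above without overlap in 28.2% and below in 26.6%. With 3 libraries each, an exact permutation test of 1 ratio cannot give a p below 0.1, so the ratios are given as descriptions.

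Among the 7 members that modify heparan sulfate, 4 of the 6 tested were higher and none was lower. The background was 19.3% higher and 19.2% lower. Hs3st3b1, which is not a member, was lower and is described with the other chain enzymes. Hs3st1 (ENSMUSG00000051022.7, mm10 chromosome 5, 39613935 to 39755475, minus strand), whose 3-O-sulfation is known for making the antithrombin binding site, was at 23.3, 19.7 and 15.8 CPM in the wild-type libraries and at 44.1, 56.1 and 48.8 CPM in the knockout libraries, a rise of 1.34 (SE 0.17, adjusted p = 0.00130). Hs2st1, which sulfates uronic acid at the 2-O position, was at 21.03, 22.8 and 22.8 CPM and 46.5, 37.8 and 39.8 CPM, a rise of 0.90 (SE 0.12, adjusted p = 0.00161). Hs6st1, a 6-O-sulfotransferase gene, was at 65.7, 52.4 and 52.4 CPM and 103, 99.8 and 95.3 CPM, a rise of 0.81 (SE 0.12, adjusted p = 0.00234). In all 3 genes every knockout library was above every wild-type library.

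Ndst2 and Ndst1 encode enzymes that swap acetyl for sulfate on glucosamine, the step that opens the chain to later sulfation. Ndst2, known for heparin in mast cells, was at 9.24, 8.83 and 9.57 CPM in the wild-type libraries and 14.7, 12.2 and 12.7 CPM in the knockout libraries, a rise of 0.52 (SE 0.15, adjusted p = 0.0298) that lost its call when any 1 of wild type 2, wild type 3 or the 3 knockout libraries was left out (adjusted p 0.0619 to 0.0879). Beside it, 3 of 8 mast cell markers were higher, and none was at 0 in every library. The 8 summed to 17.4 to 34.4 CPM among wild-type libraries and 373 to 876 CPM among knockout ones. Most of the knockout sum came from the 3 called protease genes, Mcpt1, Mcpt2 and Mcpt4, at means of 103, 298 and 114 CPM. Cpa3, Kit, Tpsb2, Fcer1a and Ms4a2 were not called, and the groups overlapped in all of these but Fcer1a. The part of mast cells in the Ndst2 value was not tested. Ndst1 was at 34.7, 47.1 and 55.3 CPM and 59.9, 53.6 and 48.2 CPM with overlapping groups (0.24, SE 0.18, adjusted p = 0.324). Glce, the epimerase that turns glucuronic into iduronic acid, was at 23.5, 23.0 and 24.5 CPM and 29.6, 26.2 and 24.2 CPM (0.17, SE 0.12, adjusted p = 0.283). Hs2st1, which acts on the product of Glce, stood at 0.743, 0.826 and 0.773 of the level of Glce per kilobase in wild type and at 1.31, 1.198 and 1.37 times its level in the knockout. Hs6st2, a second 6-O-sulfotransferase gene on chromosome X, had 3, 0 and 3 counts in wild type and 28, 8 and 6 counts in the knockout, too few for the test.

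Both extracellular sulfatase genes were called higher, beside 19.3% of all tested genes. Sulf1 and Sulf2 encode enzymes that remove 6-O-sulfate from finished heparan sulfate outside the cell. Sulf2 (ENSMUSG00000006800.14, mm10 chromosome 2, 166073089 to 166155663, minus strand) was at 56.8, 53.2 and 50.8 CPM in wild type 1 to 3 and, in the same order, 175, 169 and 173 CPM in knockout 1 to 3, a rise of 1.69 (SE 0.09, adjusted p = 1.19e-04), with the smallest adjusted p of the 36 members. The 3 libraries of each genotype lay close together and the groups were far apart. Sulf1 (ENSMUSG00000016918.15, mm10 chromosome 1, 12692277 to 12861192, plus strand) was much scarcer, at 1.79, 2.47 and 3.31 CPM in the wild-type libraries and 15.04, 17.5 and 13.6 CPM in the knockout libraries, and rose by 2.60 (SE 0.26, adjusted p = 6.40e-04), the largest change of the 36 members. Of 6 endothelial markers 3 were higher and none was at 0 in every library. They summed to 11.2 to 24.9 CPM in the wild-type libraries and to 49.3 to 74.7 CPM in the knockout libraries. Pecam1 made up 9.94 of the 11.2 CPM in wild type 1, and Cdh5, Kdr and Emcn were not called. Fibroblast markers summed to 48.6 to 783 CPM and 402 to 541 CPM, with overlapping groups. The part of endothelial cells or fibroblasts in the Sulf1 value was not tested. Per kilobase, Sulf2 was at 60.9, 41.4 and 29.6 times the level of Sulf1 in wild type and at 22.4, 18.7 and 24.5 times in the knockout. The sum of both sulfatases per kilobase went from 9.35 ± 0.445 to 30.8 ± 0.418 CPM (SD, n = 3 each), 3.29 times as high, and the sum of the 7 heparan modification genes went from 32.8 ± 1.55 to 58.7 ± 2.35 CPM, 1.79 times as high. With the 9 heparan modifying genes that are not members added, Hs3st3b1 among them, the sum of 16 genes was 65.4, 61.8 and 60.1 CPM per kilobase in wild type 1 to 3 and 66.9, 70.3 and 65.1 in knockout 1 to 3. That is 1.08 times as high in the knockout, and the groups overlapped, so the higher sum holds for the members and not for all such genes.

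Sulf2 removes the groups that Hs6st1 adds, so both genes were also set side by side within each library. The ratio of Sulf2 to Hs6st1 per kilobase was 0.815, 0.959 and 0.916 in wild type 1, 2 and 3 and 1.61, 1.60 and 1.71 in knockout 1, 2 and 3. Per kilobase, Hs6st1 was thus the higher of the pair in every wild-type library, and Sulf2 was in every knockout library. The wild-type order rests on the exon lengths used, since in CPM wild type 2 had Sulf2 at 53.2 and Hs6st1 at 52.4. Of the exon bases of Hs6st1, 447 also belong to Gm37335 on the opposite strand. Of the exon bases of Sulf2, 154 also belong to Ncoa3 on the opposite strand, and whether counting used the strand is not given in the sources used here.

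**Figure D2:**
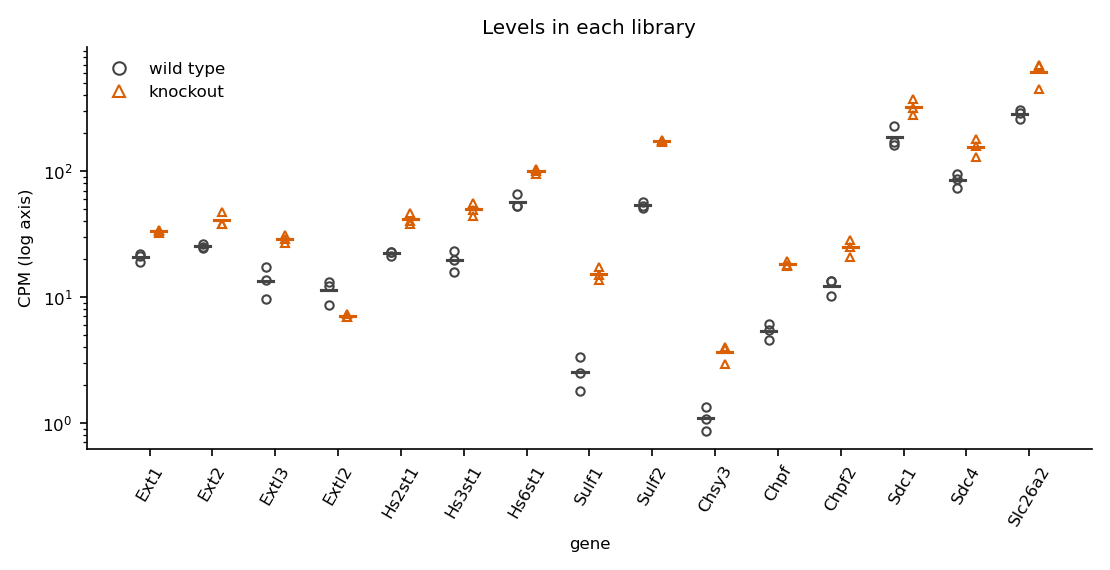
CPM on a log axis in each library for 15 genes, with 3 wild-type libraries as grey circles, 3 knockout libraries as orange triangles and a bar at each mean. The groups do not overlap for any gene shown, and Extl2 is the one whose knockout libraries lie below.

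Of the 6 genes that start and extend chondroitin chains, 3 rose, all of them polymerase genes, beside 19.3% of all tested genes. Chpf (ENSMUSG00000032997.16, mm10 chromosome 1, 75474569 to 75479307, minus strand) encodes a partner subunit of the chondroitin polymerase and was at 6.08, 4.56 and 5.51 CPM in the wild-type libraries and 17.9, 19.3 and 17.5 CPM in the knockout libraries, a rise of 1.76 (SE 0.16, adjusted p = 5.53e-04). Chpf2, a related subunit gene, was at 13.4, 10.2 and 13.3 CPM and 28.6, 25.0 and 20.6 CPM, a rise of 1.01 (SE 0.17, adjusted p = 0.00438). Chsy3, a chondroitin synthase gene, was low at 0.869, 1.07 and 1.33 CPM in the wild-type libraries and at 4.04, 2.95 and 3.88 CPM in the knockout libraries, a rise of 1.73 (SE 0.35, adjusted p = 0.00821). The genotypes did not overlap in any of these 3 genes, but Chsy3 rests on 58 counts in wild type and 255 in the knockout. Chpf2 shares 2466 exon bases with Smarcd3 on the opposite strand, which had 318 estimated counts over the 6 libraries.

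Chsy1, the more abundant synthase gene, was at 4.73, 7.26 and 7.89 CPM and 7.43, 7.36 and 8.68 CPM and did not pass the test (0.24, SE 0.24, adjusted p = 0.463). Csgalnact1 and Csgalnact2 add the first sugar that commits a linker to chondroitin. Csgalnact1 was at 1.195, 2.53 and 2.09 CPM and 5.10, 3.49 and 3.62 CPM, with all knockout libraries higher but no call (1.07, SE 0.38, adjusted p = 0.0601), and Csgalnact2 was at 7.66, 12.7 and 15.7 CPM and 12.2, 18.04 and 13.2 CPM with overlapping groups (0.27, adjusted p = 0.479). Within libraries, Chpf went from 0.660, 0.645 and 0.599 of the level of Chpf2 per kilobase in wild type to 0.910, 1.12 and 1.23 in the knockout. The 6 chain genes together summed to 7.93 ± 1.17 CPM per kilobase in wild type and 14.99 ± 0.883 in the knockout, 1.89 times as high.

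**Figure D3:**
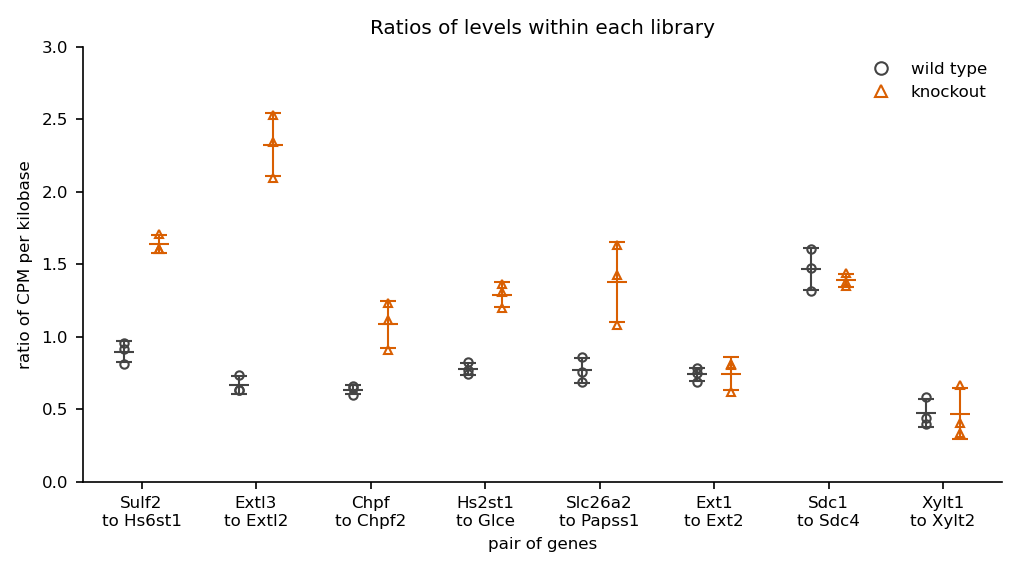
Ratio of CPM per kilobase of 8 pairs of genes in each library, with wild type as grey circles and knockout as orange triangles (bars are mean ± SD, n = 3). The first 5 pairs do not overlap between genotypes, and Ext1 to Ext2, Sdc1 to Sdc4 and Xylt1 to Xylt2 do.

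The genes that modify chondroitin and dermatan sulfate gave 1 call among 6 tested, beside 19.3% higher and 19.2% lower among all tested genes. Chst11, a chondroitin 4-O-sulfotransferase gene, was at 0.435, 1.29 and 2.26 CPM in the wild-type libraries and 5.27, 5.28 and 2.83 CPM in the knockout libraries, a rise of 1.74 (SE 0.58, adjusted p = 0.0485). Its wild-type libraries differed by a factor of 5.20, and the call ended when wild type 2 or any 1 of the 3 knockout libraries was left out (adjusted p 0.0579 to 0.138). Chst15, which adds a second sulfate to 4-sulfated chondroitin, was at 1.58, 3.66 and 6.55 CPM and 7.01, 9.47 and 7.81 CPM, every knockout library higher, and was not called (1.04, SE 0.47, adjusted p = 0.115). Chst12, a second 4-O-sulfotransferase gene, was at 0.706, 2.76 and 6.55 CPM and 0.977, 2.87 and 2.36 CPM (-0.69, SE 0.77, adjusted p = 0.509). Dse, an epimerase that makes dermatan sulfate, was at 0.489, 3.54 and 4.41 CPM and 1.57, 3.86 and 3.14 CPM (0.03, SE 0.73, adjusted p = 0.982). Chst14, the dermatan 4-O-sulfotransferase gene, and Ust, a uronyl 2-O-sulfotransferase gene, stayed under 1.4 CPM in every library, with adjusted p of 0.969 and 0.667.

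The 6-O-sulfotransferase genes Chst3 and Chst7 were too low to test. Chst3 had 1.44, 2 and 24 estimated counts in wild type and 4.07, 0 and 5.20 in the knockout, and Chst7 had 1, 4 and 8 counts and 8, 4 and 14 counts. A difference in either gene was not detectable at this depth.

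Wild type 1 had the lowest level of every tested chondroitin modification gene among the wild-type libraries. The ratio of the highest to the lowest wild-type library was over 2 in 9 of the 36 tested members, led by Ust at 13.5, Chst12 at 9.28 and Dse at 9.02. The 8 fibroblast markers summed to 48.6, 646 and 783 CPM in wild type 1, 2 and 3 and to 402, 541 and 462 CPM in knockout 1, 2 and 3. The 5 smooth muscle markers summed to 191, 1383 and 2892 CPM and to 66.6, 854 and 627 CPM. None of these 13 markers was at 0 in every library, and none was called. Wild type 1 was thus low in both marker sums and in the chondroitin modification genes, and the part of stromal cells in these values was not tested. Without wild type 1 and knockout 1, 15 members were higher and 2 were lower, beside 23.7% higher and 24.3% lower among all genes tested in that fit.

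**Figure D4:**
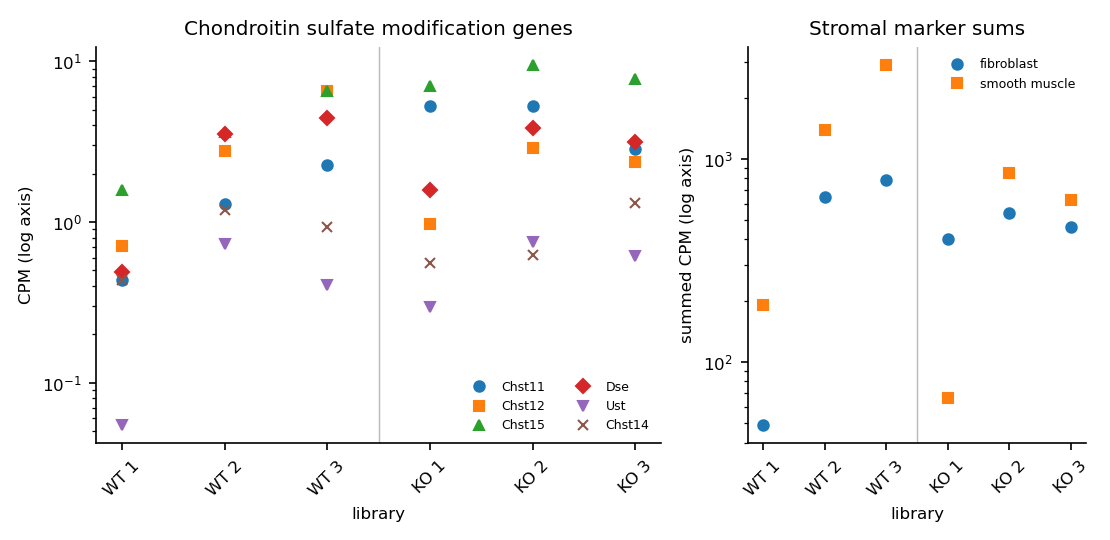
Left, CPM on a log axis of the 6 tested chondroitin modification genes in each of the 6 libraries. Right, summed CPM on a log axis of 8 fibroblast and 5 smooth muscle markers, where wild type 1 has the lowest fibroblast sum at 48.6 CPM and knockout 1 the lowest smooth muscle sum at 66.6 CPM.

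Of the 3 core proteins, both syndecan genes were abundant and higher, and Gpc1 was low and not called. Among all tested genes 19.3% were higher. Sdc1 (ENSMUSG00000020592.14, mm10 chromosome 12, 8771323 to 8793715, plus strand) encodes syndecan-1, the main heparan sulfate carrier of epithelia, and was at 227, 161 and 170.1 CPM in the wild-type libraries and 370.4, 319 and 280.0 CPM in the knockout libraries, a rise of 0.79 (SE 0.17, adjusted p = 0.00926). Sdc4, a syndecan of cell adhesion sites, was at 94.6, 73.2 and 86.4 CPM and 179.6, 158 and 130.1 CPM, a rise of 0.88 (SE 0.15, adjusted p = 0.00440). The groups did not overlap in either gene, and their ratio per kilobase overlapped, at 1.47 ± 0.146 in wild type and 1.39 ± 0.0462 in the knockout. Gpc1, a lipid-anchored glypican, was at 1.90, 2.47 and 4.52 CPM and 3.87, 6.36 and 7.89 CPM, with overlapping groups and no call (1.03, SE 0.42, adjusted p = 0.0897). Sdc1 is also a surface protein of plasma cells. Of 6 plasma cell markers 3 were higher, and their sum was 257 to 278 CPM in wild type, nearly all of it Xbp1, and 466 to 993 CPM in the knockout. Jchain, the joining chain of secreted antibodies, was at 0.163, 0.225 and 0.348 CPM and 75.9, 40.0 and 91.6 CPM, and no marker was at 0 in every library. Squamous cell markers, with 4 of 6 higher and none at 0 in every library, summed to 4.58 to 9.29 CPM in wild type and to 150.4 to 167 CPM in the knockout. Of the 6 epithelial markers, Epcam and Krt18 were higher, Krt8 and Cldn18 were lower, and Cdh1 and Krt19 were not called. Epcam was at 368, 326 and 296 CPM and 708, 717 and 785 CPM. Krt18 was at 829, 669 and 554 CPM and 1346, 1384 and 1338 CPM. The 6 summed to 12803 to 16250 CPM in wild type and to 12114 to 12846 CPM in the knockout. The part of plasma, squamous and other epithelial cells in the Sdc1 level was not tested.

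The sulfate transporter gene rose, while neither gene of the sulfate donor PAPS passed the test. Slc26a2, a sulfate transporter of the cell membrane, was at 291, 308 and 257 CPM in the wild-type libraries and 693, 683 and 453 CPM in the knockout libraries, a rise of 1.09 (SE 0.18, adjusted p = 0.00357). Papss1 and Papss2 encode the enzymes that make PAPS. Papss1 was at 104, 88.4 and 83.6 CPM and 120.1, 103 and 103 CPM (0.24, SE 0.12, adjusted p = 0.155), and Papss2 was at 406, 367 and 354 CPM and 218, 415 and 424 CPM (-0.09, SE 0.25, adjusted p = 0.789). Knockout 1 stood apart for Papss2, below every other library, while the other knockout libraries lay above all wild-type ones. Of 6 enterocyte markers, 4 were higher, Fabp2 was lower and none was at 0 in every library, and they summed to 1888 to 2206 CPM in the wild-type libraries and 1752 to 2757 CPM in the knockout libraries. Knockout 1 was also the lowest knockout library for Alpi, the intestinal alkaline phosphatase, at 29.6, 19.2 and 20.01 CPM and 308, 1309 and 1214 CPM, and for Cdh17, an intestinal cadherin, at 0.598, 0.225 and 0.116 CPM and 5.01, 90.2 and 199 CPM. Fabp2 and Sis were lowest in knockout 1 too. Vil1 was nearly level, at 355, 368 and 369 CPM in knockout 1 to 3. Krt20 went the other way, at 1063, 888 and 718 CPM, and Slc26a2 was also highest in knockout 1. The part of enterocytes in the Papss2 and Slc26a2 values was not tested. The ratio of Slc26a2 to Papss1 per kilobase was 0.690, 0.861 and 0.759 in wild type and 1.42, 1.63 and 1.08 in the knockout.

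Set in order of level per kilobase, the sulfate donor and syndecan genes led in both genotypes. In wild type Papss2 was first at 100.9 ± 7.33 CPM per kilobase, followed by Sdc1 at 48.9 ± 9.42, Sdc4 at 33.3 ± 4.24, Papss1 at 30.2 ± 3.55 and Slc26a2 at 23.1 ± 2.11. Sdc4 and Papss1 lay within their spread of each other. In the knockout Papss2 at 94.7 ± 31.2 and Sdc1 at 84.8 ± 11.9 overlapped, which rests on knockout 1, where Papss2 was at 58.7 against 97.2 for Sdc1. In knockout 2 and 3 Papss2 was at 111 and 114 against 83.7 and 73.5. Slc26a2 at 49.3 ± 10.98 came before Papss1 at 35.7 ± 3.19. Sulf2 was eighth in wild type at 9.13 ± 0.511 and sixth in the knockout at 29.4 ± 0.513, and Chpf went from place 24 to place 14. Extl2 went from place 13 to place 22.

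Promoter windows from RefSeq (GRCm38.p6, 250 bases before to 50 after the start) were found for 30 of the 39 members. They were searched on both strands for ACGTGGC, the core of an element through which the factor TFE3 acts in Golgi stress in human cells. It was found in 1 of 30 members (3.33%), Chsy1, and in 4.42% of the 10773 tested genes with a window. The GC box GGGGCGG, chosen after the values were seen, was in 18 of 30 members (60%), in 8 of the 11 called higher with a window (72.73%) and in 46.36% of tested genes. The palindrome TGACGTCA, also chosen afterwards, was in 1 of 30 members (3.33%), Chpf, which held 2 copies, against 3.45% of tested genes. Of the 27025 genes with a window, 13 held at least 2 copies. No motif contains another, and a match is a description of the letters only. The windows below are those of Chpf, Sulf2 and Hs3st1, the largest rises among members that had a window and kept their call under all settings, and of Chsy1, the member with the first motif, which was not called. Capitals mark TGACGTCA and the GC box on either strand in Chpf and Sulf2, and the first motif in Chsy1, while Hs3st1 has no match. Sulf2 has 2 RefSeq windows, of which the one with the GC box is shown.
Chpf, chr1:75479422-75479721, minus strand: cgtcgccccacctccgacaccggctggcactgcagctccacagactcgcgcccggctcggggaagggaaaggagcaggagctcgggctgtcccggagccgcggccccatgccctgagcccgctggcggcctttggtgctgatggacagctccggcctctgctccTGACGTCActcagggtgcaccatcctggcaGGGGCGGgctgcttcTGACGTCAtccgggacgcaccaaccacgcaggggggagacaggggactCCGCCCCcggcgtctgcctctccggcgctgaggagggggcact
Sulf2, chr2:166155634-166155933, minus strand: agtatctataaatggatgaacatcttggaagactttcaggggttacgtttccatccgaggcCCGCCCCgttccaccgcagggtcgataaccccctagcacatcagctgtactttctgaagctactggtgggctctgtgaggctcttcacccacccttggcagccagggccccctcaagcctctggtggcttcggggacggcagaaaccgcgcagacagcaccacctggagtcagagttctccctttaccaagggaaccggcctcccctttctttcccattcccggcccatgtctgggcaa
Hs3st1, chr5:39644582-39644881, minus strand: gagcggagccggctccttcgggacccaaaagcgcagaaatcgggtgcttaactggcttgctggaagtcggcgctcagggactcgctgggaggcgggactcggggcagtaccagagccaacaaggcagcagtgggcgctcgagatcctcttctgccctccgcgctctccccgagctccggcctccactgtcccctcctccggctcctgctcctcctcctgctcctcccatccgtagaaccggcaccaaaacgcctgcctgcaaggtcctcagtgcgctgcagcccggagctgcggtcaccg
Chsy1, chr7:66109242-66109541, plus strand: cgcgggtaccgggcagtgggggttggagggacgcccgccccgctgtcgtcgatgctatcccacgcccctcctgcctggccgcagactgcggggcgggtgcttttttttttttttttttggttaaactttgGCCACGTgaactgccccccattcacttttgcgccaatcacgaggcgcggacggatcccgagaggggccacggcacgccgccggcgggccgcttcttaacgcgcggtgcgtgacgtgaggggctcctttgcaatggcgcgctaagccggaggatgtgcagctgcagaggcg

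Genes around the pathway were read from lists of related genes. Among 10 tested genes that supply sugar and sulfate donors, 2 were higher and 5 were lower, beside 19.3% higher and 19.2% lower among all tested genes. Ugdh, which makes the UDP-glucuronic acid of both chains, was at 754, 718 and 734 CPM in the wild-type libraries and 374, 305 and 348 CPM in the knockout libraries, a fall of 1.10 (SE 0.11, adjusted p = 6.61e-04). Ugp2, which makes UDP-glucose one step before, was at 370.3, 399.9 and 362 CPM and 148, 164 and 168 CPM, a fall of 1.24 (SE 0.10, adjusted p = 3.99e-04). All knockout libraries were under all wild-type libraries in both genes. The Golgi nucleotide sugar transporter gene Slc35d2 fell by 1.49 (SE 0.13, adjusted p = 4.62e-04), and Slc35a2, the UDP-galactose transporter gene, rose by 1.01 (SE 0.19, adjusted p = 0.00558). With total counts 3 of these genes were higher and 3 lower, beside 40.9% and 7.78% of all tested genes. The lower count was also 3 without knockout 2, and the higher count was 1 whichever single library was left out.

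Chain enzymes outside the 39 were mostly too low, with 3 of 11 tested. Hs3st3b1, another 3-O-sulfotransferase gene, was at 150.5, 144 and 136 CPM in the wild-type libraries and 38.2, 45.5 and 42.4 CPM in the knockout libraries, a fall of 1.77 (SE 0.11, adjusted p = 1.37e-04), against the rise of Hs3st1. Fam20b, the kinase that marks the linker xylose, was at 162, 152 and 167 CPM and 193, 193 and 196 CPM, a rise of 0.27 (SE 0.09, adjusted p = 0.0476) whose call ended under 9 of 16 other settings, and it was the only one called of 2 linker control genes.

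Of 18 tested core proteins outside the 39, 7 were higher and 1 was lower, beside 19.3% and 19.2% of all tested genes. Col18a1, a basement membrane collagen with heparan sulfate chains, was at 6.08, 7.93 and 12.2 CPM in the wild-type libraries and 217, 169.6 and 157 CPM in the knockout libraries, a rise of 4.37 (SE 0.29, adjusted p = 2.69e-04). Gpc4, a glypican, rose by 1.65 (SE 0.18, adjusted p = 7.92e-04), Agrn, the basement membrane protein agrin, by 1.16 (SE 0.16, adjusted p = 0.00182) and Cd44, a hyaluronan receptor, by 1.27 (SE 0.22, adjusted p = 0.00512). The higher count was 4 without wild type 2, without knockout 2 or with no filter on low counts. Without both libraries numbered 1, 9 genes were higher and 3 lower, beside 23.7% and 24.3% of all genes tested in that fit. Sdc2, another syndecan gene and the one called lower, fell by 0.56 (SE 0.19, adjusted p = 0.0492), and no gene of the list was lower when any 1 of wild type 2, wild type 3 or the 3 knockout libraries was left out. It is named here because of its value.

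Of 17 tested genes that break down the chains, 8 were higher and 0 lower, beside 19.3% and 19.2% of all tested genes. The lysosomal genes Hexa and Glb1 were among those higher. Hexa, a subunit of beta-hexosaminidase, was at 48.4, 38.0 and 40.7 CPM in the wild-type libraries and 85.7, 97.9 and 113 CPM in the knockout libraries, a rise of 1.22 (SE 0.14, adjusted p = 9.82e-04). Hyal2, a hyaluronidase, and Glb1, a beta-galactosidase, rose by 1.08 and 0.87 (SE 0.13 and 0.11, adjusted p = 0.00116 and 0.00153). The higher count fell to 5 on leaving out wild type 2, wild type 3 or knockout 2, and was also 5 with the GC trend removed. The lower count was 1 without wild type 1, without both libraries numbered 1 and with the GC trend removed.

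**Figure D5:**
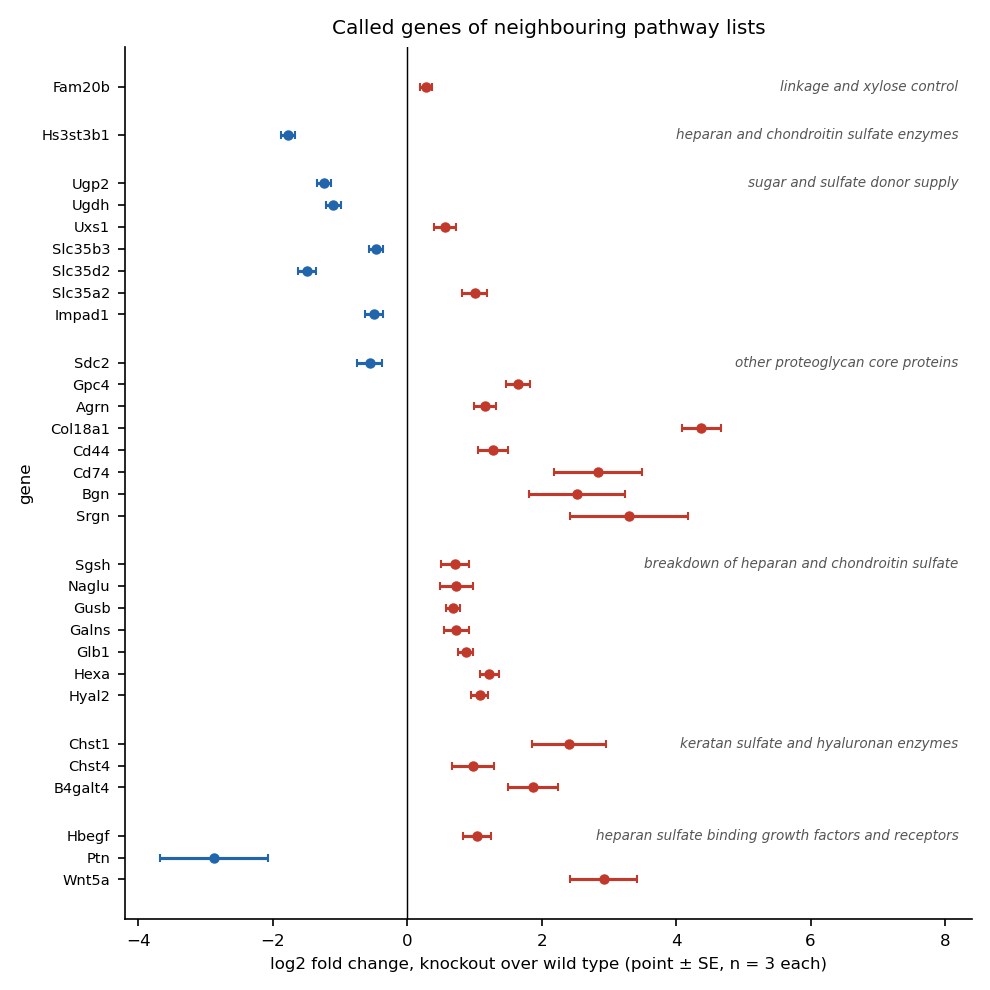
Log2 fold change of knockout over wild type (horizontal axis, edgeR estimate with SE, n = 3 each) for called genes (vertical axis) of 7 lists of related genes, 1 left out, with red for higher and blue for lower. Col18a1 has the largest rise at 4.37, 5 of the 7 called donor supply genes lie left of 0 and all breakdown genes shown lie right of it.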

How the data were processed

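Per the labels, the Nucleospin kit gave the RNA and the TruSeq Stranded mRNA kit, which keeps the strand, gave the libraries. The authors deposited 1 table of estimated counts per gene, judged so from the values, since 28.8% to 34.3% of the nonzero values of each library have decimals. The build was mm10 per the submitters' processing notes. Aligner, counter, annotation and use of strand: not given in the sources used here. So genes with overlapping exons or close copies may share reads.

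Estimated counts were rounded, and identifiers without version were matched to GENCODE M21 on the same build. Rows with no match held 0.0185% to 0.0296% of counts. Genes kept by filterByExpr (14017) were fitted with edgeR 4.0.16 (TMM factors, robust quasi-likelihood, Benjamini-Hochberg at 0.05) in R 4.3.3, with genotype from the labels and no block. The script was tested on simulated data. CPM is per 1000000 of the TMM-scaled library, and CPM per kilobase divides by merged exon length. At these totals (19839799 to 21354029) 1 count was worth 0.0416 to 0.0580 CPM, so members with few counts are imprecise, and the number of libraries limits all tests. The p-values set the difference between genotypes against the spread among the 3 libraries within each, estimated in part across genes. The labels do not say that libraries are separate animals, so this spread is possibly a technical one.

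Members and lists were chosen with earlier results of these data known. Named were every member and, from each of 7 lists, up to 4 called genes with the smallest adjusted p. A few marker genes and other called list genes are named for their values. From the lists, 1 gene is not reported here. Alternatives were RLE, upper quartile and total count scaling, other filters, DESeq2 1.42.0, limma-voom (limma 3.58.1), a replicate block, each library or both numbered 1 left out, and thresholds of 0.01 and 0.1, and, chosen after seeing the data, removal of the GC trend. Promoter windows came from the RefSeq table for GRCm38.p6. No protein sequence was used here.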

Additional observations from a re-analysis of the deposited data

How the results depend on the processing

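The count of members higher stayed within 14 to 17 in every setting but total counts, which gave 26, and a false discovery rate of 0.1, which gave 20. The share of all tested genes called higher was 8.97% at a rate of 0.01 and 11.02% without wild type 2. It was 23.7% without both libraries numbered 1, 24.7% at 0.1 and 40.9% with total counts. A steady count of members is thus not a steady excess over all tested genes. The count of members lower was 0 with total counts, a replicate block or a rate of 0.01, 0 to 1 with single libraries left out, and 2 without both libraries numbered 1 or at 0.1. Of all tested genes, 7.78% were lower with total counts, 17.8% with the block and 10.04% at 0.01. That share was 11.99% to 20.4% with single libraries left out, 24.3% without both libraries numbered 1 and 23.8% at 0.1. The count of changed genes was 2665 at 0.01 and 3342 to 6009 with single libraries left out, lowest without wild type 2 (3342) and without knockout 2 (3531). Of the 17 called members 14 kept their call under all 16 settings, and Ndst2, Chst11 and Extl2 each lost it under 8. None of the 17 changed sign. The cause of these changes was not tested, beyond fewer libraries where one was left out.

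Reversed values concerned 8 members that were not called. With the GC trend removed, B4galt7 was at -0.071, B3gat3 at -0.24, Ndst1 at -0.040 and Papss2 at 0.069. With total counts Chst14 was at 0.38 and Papss2 at 0.33. Without both libraries numbered 1, Ndst1 was at -0.029, Dse at -0.20 and Papss2 at 0.20. With single libraries left out, Chst12 ranged from -1.17 to 0.23, Chst14 from -0.52 to 0.29, Dse from -0.48 to 0.48, Ust from -0.056 to 1.26 and Papss2 from -0.24 to 0.16. The median of all members was 0.50 with the GC trend removed, and their median GC content was 52.1% against 49.6% in all tested genes.

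Replicates numbered alike deviated together with correlations of 0.252, 0.091 and 0.191, and wild type 3 correlated best with knockout 2 (0.275), so the numbers were not taken as pairs. With the replicate block 15 members were higher, 0 lower and 5069 genes changed. In that fit 18.3% of the 14017 tested genes were higher and 17.8% lower. Beside these shares, 7 of 18 heparan sulfate binding factor and receptor genes were higher, as were 8 of 18 other core proteins with 3 lower. Depth limits Hs6st2, Chst3 and Chst7, which could not be tested, and the low members Ust and Chst14. Sex coincides with genotype and cannot be told apart from it.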

Other observations

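Among 6 tested genes of keratan sulfate and hyaluronan synthesis, 3 were higher in the knockout and 0 lower. The background was 19.3% higher and 19.2% lower. B4galt4, a galactosyltransferase gene, was at 1.85, 2.81 and 5.05 CPM in the wild-type libraries and 10.1, 11.01 and 14.4 CPM in the knockout libraries, a rise of 1.87 (SE 0.37, edgeR adjusted p = 0.00735). Chst1, a keratan sulfate 6-O-sulfotransferase gene, was at 0.326, 0.787 and 0.348 CPM and 1.44, 3.24 and 3.14 CPM, a rise of 2.41 (SE 0.55, adjusted p = 0.0130), and lost its call without wild type 3 or knockout 2 (adjusted p = 0.0505 and 0.0530). Chst4, another sulfotransferase gene, rose by 0.98 (SE 0.31, adjusted p = 0.0461) and lost its call under 9 of 16 settings. Their count was 1 without wild type 3 or without knockout 2.

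Of 18 heparan sulfate binding growth factors and receptors, 2 were higher and 1 lower, beside 19.3% and 19.2% of all tested genes. Wnt5a, a secreted Wnt ligand, was at 1.09, 3.21 and 5.05 CPM in the wild-type libraries and 19.5, 27.7 and 23.6 CPM in the knockout libraries, a rise of 2.92 (SE 0.50, adjusted p = 0.00584). Hbegf, a heparin-binding ligand of the EGF receptor, rose by 1.03 (SE 0.21, adjusted p = 0.00808) and lost its call without both libraries numbered 1 (adjusted p = 0.0508). Ptn, the heparin-binding cytokine pleiotrophin, fell by 2.88 (SE 0.80, adjusted p = 0.0336) from 4.51, 12.04 and 23.7 CPM to 0.510, 2.49 and 2.44 CPM and lost its call under 8 of 16 settings. The higher count was 4 without wild type 1 and 5 with DESeq2 or total counts, and the lower count was 0 when any 1 of wild type 2, wild type 3 or the 3 knockout libraries was left out.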
